A study of Mus musculus with 10 samples.

Results

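The genes described here were the well-expressed members of the mouse Zfp family, whose symbols are Zfp followed by a number alone. A gene was kept when its brightest probe set had a mean signal of at least 100 over all 10 arrays. That left 121 of the 304 such genes on the array. The 121 genes lay among 13811 genes with 1 symbol that entered the comparison, and all 121 entered it. The genes were chosen by that mean signal, so their level is a description here and not a finding, while the difference between the groups was not used in the choice. The choice was made with earlier results of these data known.

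The arrays compared germinal vesicle oocytes, the fully grown mouse oocyte held in prophase of meiosis I. There were 5 arrays of wild-type oocytes and 5 of CTCF-depleted oocytes. CTCF, itself a zinc finger protein, occupies insulators and anchors many loops of the chromosome. The labels gave no strain, age, allele or agent, did not say how CTCF was depleted, and did not tie the samples to animals. The p-values therefore reflect only sample-to-sample spread, which may be technical. A group difference in a bulk sample cannot tell fewer expressing cells from less RNA per cell.

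Most Zfp proteins bind DNA through arrays of zinc fingers, small folds in which cysteine and histidine residues hold a zinc ion. Many also carry a KRAB domain, which recruits the corepressor TRIM28 and, through it, the histone methyltransferase SETDB1 to silence retroelements and to protect imprinted loci. Others act as activators, as partners of chromatin complexes or on RNA. The genes often lie in clusters that arose by tandem duplication. In the oocyte, KRAB zinc finger proteins are part of the maternal store that keeps imprints through the first divisions of the embryo.

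Promoter windows show how unlike these genes are at their starts. RefSeq windows of 300 bases on GRCm38.p6, from 250 before to 50 after a gene's start, were found for 99 of the 121 genes, and Zfp41 had none. The window of Zfp61, the largest fall, is shown first and that of Zfp771, the largest rise with a window, second, with each CG pair in capitals. The Zfp61 window (chr7:24299500-24299799, minus strand) held 14 such pairs and was 41.3% G and C. The Zfp771 window (chr7:127244276-127244575, plus strand) held 25 and was 71.7% G and C. The window of Zfp638 (chr6:83914103-83914402, plus strand) is shown last because Zfp638 was the 1 called gene with a match to a CTCF-like motif, which stands in capitals. These windows are RefSeq sequence.
Zfp61: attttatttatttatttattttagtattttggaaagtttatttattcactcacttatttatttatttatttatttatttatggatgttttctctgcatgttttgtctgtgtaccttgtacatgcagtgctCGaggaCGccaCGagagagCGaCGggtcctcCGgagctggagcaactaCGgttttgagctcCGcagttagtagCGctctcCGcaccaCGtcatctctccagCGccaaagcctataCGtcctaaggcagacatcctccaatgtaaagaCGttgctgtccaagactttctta
Zfp771: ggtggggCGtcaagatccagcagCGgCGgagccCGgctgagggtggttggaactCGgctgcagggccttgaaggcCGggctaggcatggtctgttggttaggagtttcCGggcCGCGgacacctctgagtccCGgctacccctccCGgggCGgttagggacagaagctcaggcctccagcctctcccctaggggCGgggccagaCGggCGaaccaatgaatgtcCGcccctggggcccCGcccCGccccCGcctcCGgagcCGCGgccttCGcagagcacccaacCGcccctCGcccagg
Zfp638: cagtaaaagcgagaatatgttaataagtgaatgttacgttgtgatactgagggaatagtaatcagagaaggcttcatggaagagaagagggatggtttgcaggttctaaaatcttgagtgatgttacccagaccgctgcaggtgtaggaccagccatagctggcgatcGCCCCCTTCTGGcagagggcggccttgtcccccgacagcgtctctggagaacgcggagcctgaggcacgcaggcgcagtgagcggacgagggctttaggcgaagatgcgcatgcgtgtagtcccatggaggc

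The motif searched was the core of the CTCF site, read as CCA, any 2 bases, AG, any 2 bases and GGC, on both strands. The Zfp638 match, GCCCCCTTCTGG, is on the opposite strand and begins at base 169 of the window. The motif lay in windows of 3 of 99 Zfp genes (3.03%), namely Zfp638, Zfp956 and Zfp957, and of 763 of 27025 genes in the whole table (2.82%), so the share was near that of all genes. The median Zfp gene had 57.7% G and C and 17 CG pairs in its window, against 52.8% and 7 over all genes of the whole table. Those genes, unlike the Zfp genes, were not chosen by signal, and windows of other genes with similar signal were not compared. For the genes that fell, only 11 of 15 had a window, too few to compare their windows with those of genes that rose.

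The label of the depleted samples was checked on Ctcf itself. On its brighter probe set Ctcf signal was 1001 ± 76.0 in wild-type oocytes and 36.3 ± 33.7 after depletion (SD, n = 5 each), with depleted replicate 5 at 95.8 and the other 4 depleted arrays between 16.7 and 29.3. Arrays have no read depth, so their number limits the precision. Correlations of log2 signals between arrays were 0.978 to 0.982 within groups and 0.975 to 0.979 between them. Of 11 oocyte markers measured, all 11 lay above the Bacillus control probe sets on all 10 arrays, and their summed signal was 50896 to 55383 in wild-type and 47743 to 54757 in depleted oocytes. Of 14 granulosa and cumulus markers, 9 were above those controls on every array. On their brightest probe sets 3 (Fshr, Nr5a2 and Ptgs2) were called higher in depleted oocytes and 0 lower. Of all genes 16.4% were called. Ptgs2 was above the controls on 0 of 5 wild-type arrays. Kitl was not called, at a log2 fold change of -0.45, but its groups did not overlap. Of its other 2 probe sets 1 was called lower. The summed signal of the 14 markers was 802 to 1719 in wild-type, where replicate 2 held the top value, and 872 to 1096 in depleted oocytes. Summed theca and stroma markers (188 to 215 and 191 to 215) and blood, immune and endothelial markers (149 to 183 and 146 to 178) overlapped between groups, and Cd14, Ptprc and Col1a1 lay above the controls on no array. The log2 ratio of 3-prime to 5-prime control signal, a sign of RNA quality, was 2.80 to 3.11 on wild-type and 2.60 to 2.96 on depleted arrays. The part of other cells or of RNA quality in the Zfp values was not tested, except that with this ratio as a covariate 20 Zfp genes rose and 12 fell, among them 28 of the 34 called without it. The 6 lost were Zfp235, Zfp318, Zfp598, Zfp703, Zfp708 and Zfp946. Every one of the 121 Zfp genes lay above the controls on all 10 arrays. The choice by a mean signal of at least 100 made that likely, as the controls reached at most 10.9.

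Zfp genes moved both ways after CTCF depletion, and nearly all changes were small. Of the 121 genes, 19 were higher and 15 lower in depleted oocytes (limma, adjusted p under 0.05 by Benjamini-Hochberg across the 27022 probe sets compared), so that 34 or 28.1% were called. The background was 16.4% of all 13811 genes and 21.5% of the 7035 genes whose mean signal reached 100. The difference from the second background depended on the threshold, because at an adjusted p under 0.01 the shares were 11.6% of Zfp genes and 12.1% of genes with that signal. At the main threshold 15.7% of Zfp genes rose, against 7.27% of all genes and 10.6% of genes with that signal, and 12.4% fell, against 9.14% and 10.9%. The split also depended on the scaling of the arrays: with each array centred on its median, 27 were higher and 7 lower, and with quantile normalization 19 and 14. The median signal of an array was 8.75 to 10.8, near the Bacillus control level of 4.75 to 10.9, so median centring aligned the arrays on dim probe sets. Without wild-type replicate 4 the calls were 16 and 9. Only Zfp41 passed at 2-fold or more, or 0.826% of Zfp genes, where 1.97% of all genes and 0.910% of genes with that signal did, and 30 of the 34 called genes changed less than 1.5-fold.

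**Figure D1:**
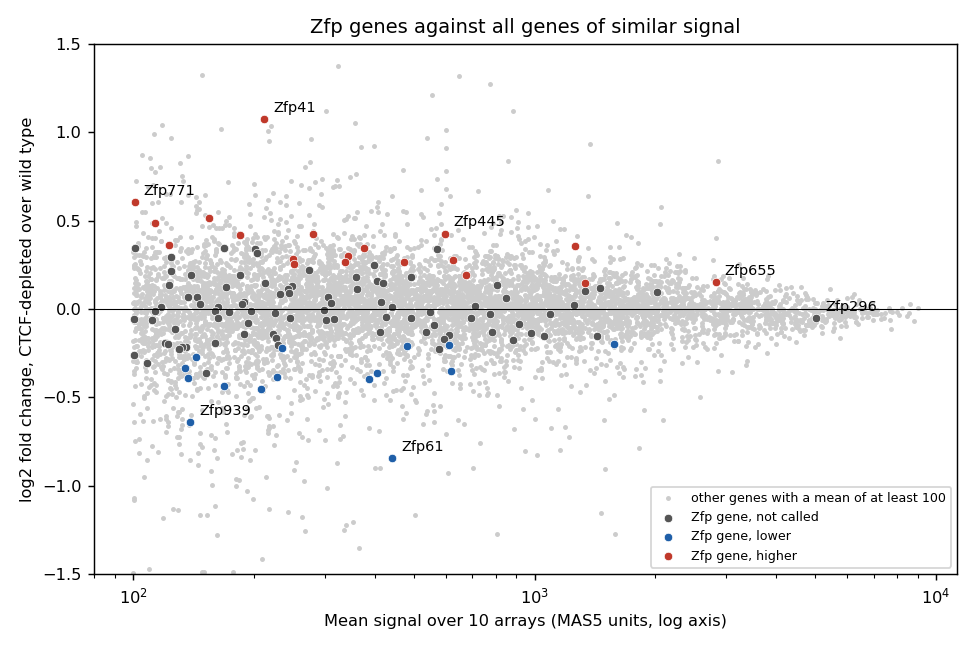
Mean signal over 10 arrays (log axis) against the log2 fold change of CTCF-depleted over wild-type oocytes, for 121 Zfp genes and, in grey, other genes whose mean signal reached 100, of which 19 lie beyond the vertical axis. Of the Zfp genes 19 are called higher (red) and 15 lower (blue), with Zfp41 at the top and Zfp61 at the bottom.

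The median Zfp gene lay close to 0. The median log2 fold change was -0.0069, between quartiles of -0.15 and 0.16, against 0.0078 over genes with a mean of at least 100, and 61 values were negative and 60 positive. The mean had the other sign, at 0.014. The median absolute change was 0.15 in Zfp genes and 0.11 in the 6914 other genes of that signal, which were brighter, with a median mean signal of 489 against 250. Summed over the 121 genes, signal was 55708 to 57568 on wild-type and 56100 to 57241 on depleted arrays, which overlapped. The median log2 signal of the 121 genes was 7.93 to 8.08 on wild-type and 8.11 to 8.17 on depleted arrays without overlap, whereas their mean log2 signal (8.25 to 8.31 and 8.23 to 8.34) overlapped. Groups did not overlap in 29 Zfp genes (24.0%), 15 higher and 14 lower in depleted oocytes, against 14.2% of all genes and 18.3% of genes with a mean of at least 100.

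By signal, 10 of 44 Zfp genes between 100 and 200 were called (22.7%), near the 23.7% of other genes in that range. Between 200 and 1000 it was 20 of 65 (30.8%, against 23.8%), and at 1000 and over 4 of 12 (33.3%, against 15.2%). These 4 bright genes were Zfp655, Zfp598, Zfp653 and Zfp212. Next to the limit of 100, the 3 genes just inside were Zfp771 (mean signal 101), Zfp994 (101) and Zfp36 (100.4), and the 3 just outside were Zfp35 (98.4), Zfp84 (93.1) and Zfp408 (89.3), with log2 fold changes of 0.61, -0.26, -0.054, 0.034, 0.038 and 0.40 in that order. In Zfp36, Zfp994 and Zfp691 only the wild-type mean reached 100, and these 3 were not called. In Zfp771, Zfp623 and Zfp217 only the depleted mean did, and Zfp771 and Zfp623 are among the 19 rises. Without these last 3 genes 17 of 118 rose.

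The largest rise was in Zfp41, a zinc finger gene that more than doubled. Its signal on wild-type replicates 1 to 5 was 140, 134, 157, 136 and 115, and on depleted replicates 1 to 5 it was 298, 288, 291, 289 and 275. Every depleted array lay far above every wild-type array, and the depleted values lay within a narrow range. The log2 fold change was 1.07 (SE 0.08, adjusted p = 1.45e-07 by limma with Benjamini-Hochberg), or 2.11-fold, from 136 ± 15.1 to 288 ± 8.63 (SD, n = 5). It had 1 probe set in the comparison. Its neighbours on the reference, Gpihbp1 and Top1mt, had log2 fold changes of -0.16 and -0.11 at low mean signals of 22.6 and 10.4 and were not called.

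The largest fall was in Zfp61. Its signal was 602, 549, 539, 558 and 588 on wild-type replicates 1 to 5, and 293, 340, 283, 316 and 346 on depleted replicates 1 to 5. No depleted array came near the wild-type range. The log2 fold change was -0.84 (SE 0.07, adjusted p = 3.37e-07 by limma with Benjamini-Hochberg), from 567 ± 26.6 to 316 ± 27.9 (SD, n = 5), or 1.79-fold lower. Zfp939 followed, with 187, 170, 165, 178 and 147 in wild-type against 95.8, 109, 105, 116 and 113 in depleted oocytes. Its groups did not overlap, and its log2 fold change was -0.64 (SE 0.09, adjusted p = 1.01e-04 by limma with Benjamini-Hochberg).

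**Figure D2:**
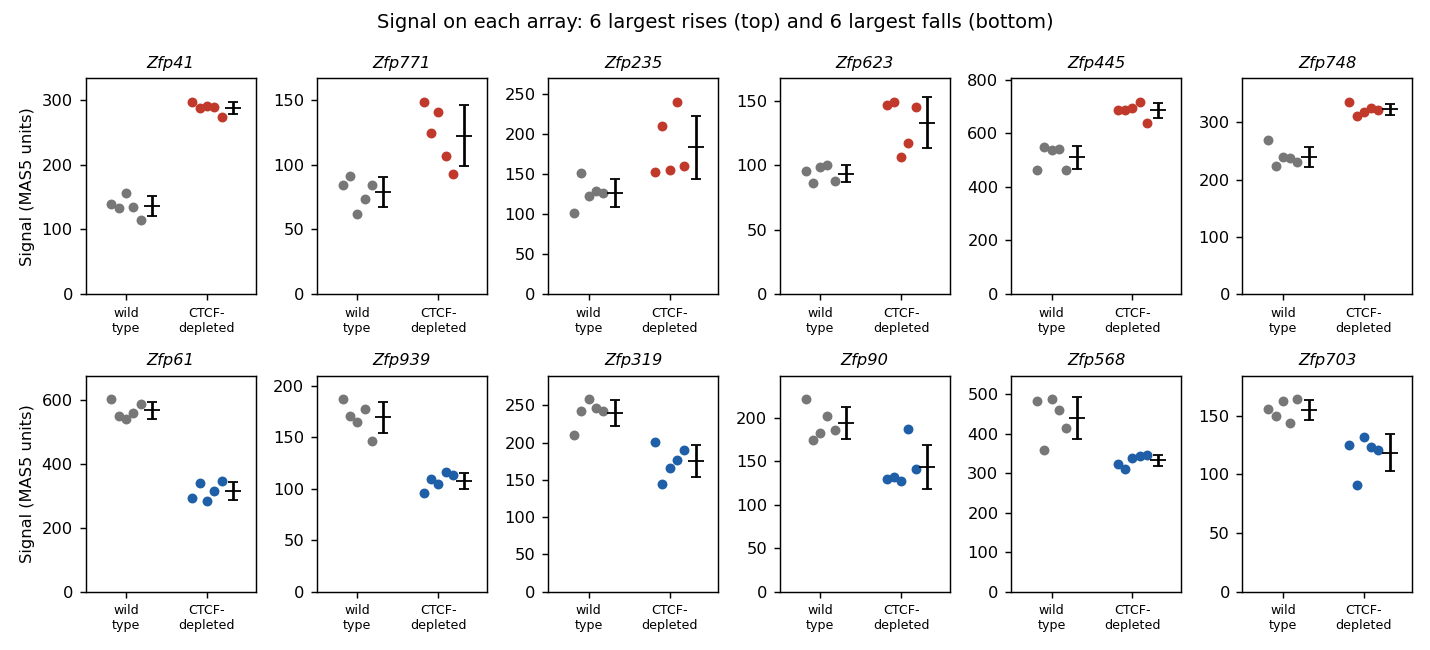
Signal in MAS5 units on each of 5 wild-type (grey) and 5 CTCF-depleted (red or blue) arrays for the 6 Zfp genes with the largest called rises and the 6 with the largest falls, with the mean and SD beside each group and axes from 0. Zfp41 lies at 115 to 157 in wild-type and 275 to 298 in depleted oocytes, whereas for Zfp90 the depleted array at 187 lies within the wild-type range.

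Zfp445 and Zfp568, described here as known KRAB repressors, moved in opposite directions, Zfp445 up and Zfp568 down. KRAB genes were not counted as a class, because protein domains were not read. Zfp445, which binds imprinting control regions and helps to maintain their methylation, read 465, 548, 536, 540 and 462 in wild-type and 686, 687, 695, 718 and 639 in depleted oocytes. The lowest depleted array stood above the highest wild-type array. Its log2 fold change was 0.43 (SE 0.06, adjusted p = 2.42e-04 by limma with Benjamini-Hochberg), and its other 2 probe sets gave 0.46, also called, and 0.028.

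Zfp568, a repressor needed for placental and embryonic development, read 482, 358, 487, 459 and 413 in wild-type and 323, 310, 338, 344 and 345 in depleted oocytes. Its groups did not overlap, although wild-type replicate 2 came close to the depleted range. Its log2 fold change was -0.39 (SE 0.08, adjusted p = 0.00345 by limma with Benjamini-Hochberg), with -0.26 on its other probe set. Zfp90, also a KRAB protein, fell by 0.44 on the log2 scale, from 194 ± 18.5 to 144 ± 25.1 (SD, n = 5). Its groups overlapped through depleted replicate 4 at 187, and it was not called under median centring.

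Of a list of 34 regulators of transcription and chromatin, 15 were among the 121, and 2 rose and 3 fell (33.3% called, against 16.4% of all genes and 21.5% of genes with a mean signal over the limit), with a median log2 fold change of 0.024. The listed falls were Zfp90, Zfp568 and Zfp703, and the listed rises Zfp410 and Zfp148. The list is not complete, since Zfp445, Zfp384 and Zfp341, which also act on transcription or chromatin, were outside it. Of these, Zfp445 and Zfp384 rose and Zfp341 fell. Zfp703, a corepressor of the NET family, went from 155 ± 8.55 down to 118 ± 15.9 (SD, n = 5), or -0.39 on the log2 scale (SE 0.10), with no overlap between groups but depleted replicate 2 apart at 90.8. Its call was lost with the 3-prime to 5-prime ratio as covariate.

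Zfp410, which activates the gene of the chromatin remodeler CHD4, rose from 226 ± 16.6 to 275 ± 18.2, a log2 fold change of 0.29 ± 0.07, on a probe set that can match several transcripts, and its other probe set gave 0.18. Chd4 itself was not called, at -0.018 ± 0.06. Zfp148, which binds GC-rich promoters, rose from 230 ± 20.1 to 275 ± 23.0 (SD, n = 5; limma, Benjamini-Hochberg adjusted p = 0.0477). That call was lost when any 1 of 9 arrays was left out, and it was lost under quantile normalization and with the replicate number as a block. Of its other 5 probe sets, 2 were called in the same direction and the rest had the opposite sign, down to -0.10.

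The other listed regulators were not called, and some of them varied widely among depleted arrays. Zfp217, a partner of the CoREST complex, read 74.8 to 102 in wild-type but 64.6 to 184 in depleted oocytes, with replicate 1 at the top and replicate 2 at the bottom. Its log2 fold change was 0.34 with an SE of 0.20. Zfp91, a ubiquitin ligase, had -0.15, Zfp110, a partner of the p75 neurotrophin receptor, -0.17, and Zfp423, a cofactor of Smad signalling, -0.14. Zfp131 had 0.14, Zfp335 0.21, Zfp687 0.12, and its relatives Zfp592 and Zfp532 0.024 and 0.039, while the SUMO ligase Zfp451 had -0.052.

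Of 11 listed genes whose products act on RNA or translation, 7 were among the 121, and 2 rose and 2 fell (57.1% called, against 16.4% of all genes and 21.5% of genes with a mean signal over the limit). The list does not hold every such gene, and Zfp473, described with the other rises, was outside it. Zfp598, a ubiquitin ligase that senses collided ribosomes, rose from 1267 ± 35.5 to 1403 ± 36.5 (SD, n = 5), and Zfp318, which acts in transcript processing, from 632 ± 34.6 to 721 ± 18.1. Both had no overlap between groups, but the call was lost without any 1 of 8 arrays for Zfp598 and of 5 for Zfp318. Both were lost with the 3-prime to 5-prime covariate, and Zfp598 also with the replicate number as a block. The other 4 probe sets of Zfp318 ran from -0.31 to 0.14.

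The RNA-binding Zfp106 fell from 656 ± 25.7 to 569 ± 27.7 (SD, n = 5) and Zfp638, which silences unintegrated viral DNA, from 514 ± 15.3 to 445 ± 28.1. In Zfp638 depleted replicate 5, at 493, lay within the wild-type range, and neither fall was called under median centring. Zfp106 was not called without any 1 of 3 arrays and Zfp638 without any 1 of 7. The other 3 probe sets of Zfp106 ran from -0.37 to 0.13. Zfp207, which acts in spindle assembly, had a log2 fold change of 0.070, with -0.69 on its other probe set, Zfp36, which binds AU-rich elements in messenger RNA, -0.054, and Zfp622, which acts in ribosome assembly, 0.34 ± 0.18 (SE), with depleted arrays from 133 to 332. These 3 were not called.

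Few genes of a general list of corepressor and silencing genes were called. Of 40 listed genes 35 were measured, 1 rose and 2 fell, with a median log2 fold change of -0.022. That made 8.57% called, against 16.4% of all genes and 21.5% of genes with a mean signal over the limit. The median mean signal of the 35 was 637, but the limit was not applied to them, and Mta2, the dimmest, had 14.2. Trim28 had a signal of 4275 in wild-type and 4061 in depleted oocytes, a log2 fold change of -0.078 ± 0.05 (SE), and Setdb1 had 0.076 ± 0.05. Neither was called. Trim33, a relative of Trim28, rose by 0.36 ± 0.05, with 0.85 on its other probe set, which was not called. The histone demethylase Kdm1a and Zmym2, a zinc finger partner of its complex, fell by 1.22 and 0.51 on the log2 scale. Their other probe sets gave -1.07, also called, and -0.38, not called.

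Of the called genes outside these lists, the largest rises were in Zfp41 and Zfp771. Zfp771 and Zfp623 reached the limit of 100 only through the depleted group, so their presence among the 121 rests on the group where they were high. Zfp771 read 84.4, 91.1, 62.0, 73.4 and 84.5 in wild-type and 149, 124, 140, 107 and 92.4 in depleted oocytes, which did not overlap by a small margin. Its log2 fold change was 0.61 (SE 0.13, adjusted p = 0.00589 by limma with Benjamini-Hochberg) on a probe set that can match several transcripts, and its other probe set gave 0.51. Zfp748 read 224 to 269 in wild-type and 311 to 336 in depleted oocytes, with no overlap and a log2 fold change of 0.43 ± 0.07. Zfp623 rose from 93.6 ± 6.49 to 133 ± 19.8 (SD, n = 5) without overlap. Zfp235 read 101 to 152 in wild-type and 152 to 240 in depleted oocytes, where wild-type replicate 2 and depleted replicate 1 nearly touched, and its log2 fold change was 0.52. The Zfp235 call was lost when that 3-prime to 5-prime ratio entered as a covariate.

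Zfp384, a matrix-associated transcription factor, rose by 0.42 on the log2 scale, although depleted replicate 2, at 157, lay within the wild-type range of 145 to 163. Zfp653 rose from 1103 ± 119 to 1413 ± 178 (SD, n = 5) and Zfp473, which takes part in the processing of histone transcripts, from 565 ± 42.7 to 684 ± 34.6. Zfp655, at a signal of 2678 ± 72.9 in wild-type, rose 1.11-fold without overlap. Zfp334 and Zfp931 rose by 0.34 and 0.36 on probe sets that can match several transcripts, both with overlap between groups, and Zfp931 was not called without any 1 of 9 arrays. Zfp597, Zfp963 and Zfp553 rose by 0.30, 0.27 and 0.26. The other probe set of Zfp553 gave -0.017, and its call was lost when its probe sets were averaged. The other 3 probe sets of Zfp597 ran from -0.29 to 0.81, with 2 called in the same direction, and its call was lost without any 1 of 4 arrays. The call of Zfp963 was lost without depleted replicate 4.

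Among the falls outside the lists, Zfp341, which activates transcription of the Stat3 gene, read 440 to 473 in wild-type and 329 to 380 in depleted oocytes. That gap gave a log2 fold change of -0.36 (SE 0.06, adjusted p = 6.25e-04 by limma with Benjamini-Hochberg). Zfp979 read 646 to 757 against 485 to 574, also without overlap, with -0.35 ± 0.06. Zfp319 fell from 240 ± 17.7 to 176 ± 21.8 (SD, n = 5), while 0.11 and 0.30 were measured on its other 2 probe sets, and it was not called when all its probe sets were averaged.

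Zfp212, the brightest of the falls, went from 1685 ± 46.0 to 1471 ± 37.2 (SD, n = 5) without overlap. Zfp936, Zfp708, Zfp612 and Zfp946 had log2 fold changes of -0.22, -0.27, -0.33 and -0.38. These 4 calls and that of Zfp212 were lost under median centring. The call was also lost without any 1 of 7 arrays for Zfp936, 6 for Zfp708, 5 for Zfp612 and 7 for Zfp946. Zfp708 and Zfp946 were also lost with the 3-prime to 5-prime covariate, Zfp936 with the replicate number as a block and Zfp612 under quantile normalization.

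**Figure D3:**
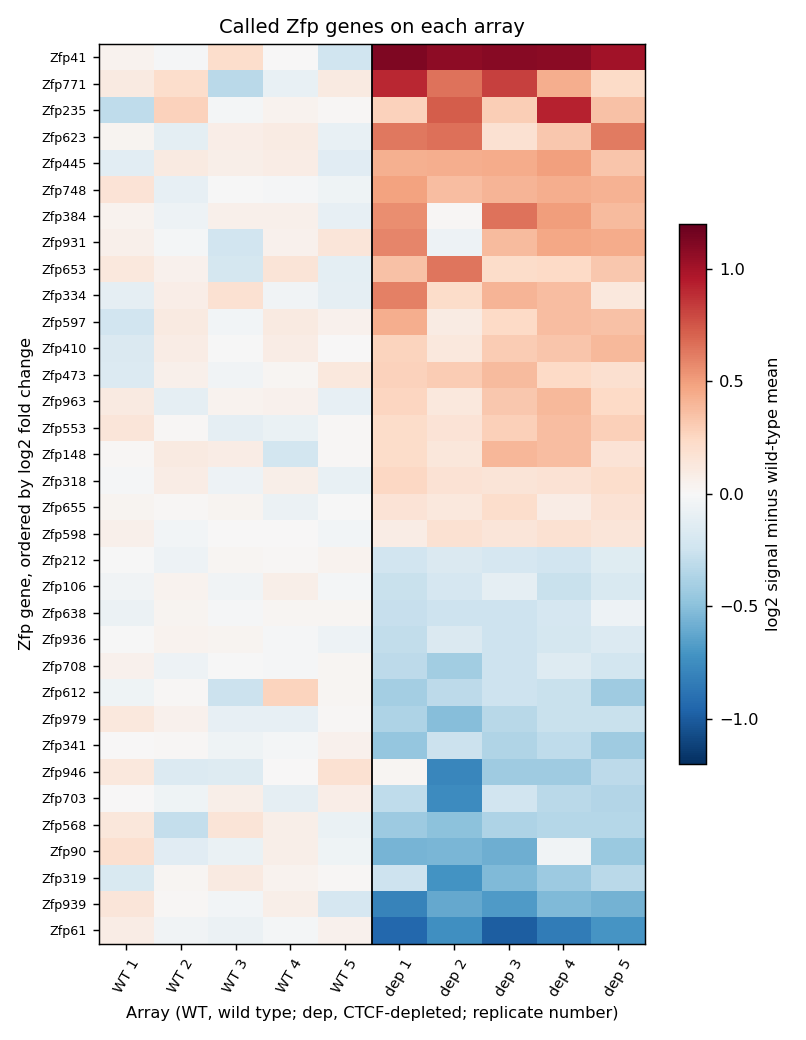
Log2 signal minus the wild-type mean for the 34 called Zfp genes (vertical axis, ordered by log2 fold change) on 5 wild-type and 5 CTCF-depleted arrays (horizontal axis), red above and blue below the wild-type mean. The depleted columns differ from gene to gene, with Zfp384 near the wild-type mean on depleted replicate 2 and Zfp90 on depleted replicate 4.

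The 34 called genes differed in how even they were across depleted arrays. In 26 of them the groups did not overlap and in 8 they did. The depleted array nearest to the wild-type mean was replicate 5, the array with the most residual Ctcf signal, in 10 of the 34, replicate 2 in 9, replicate 3 in 6, replicate 4 in 5 and replicate 1 in 4. Among 1476 other called genes of that signal it was replicate 5 in 23.6% and replicate 2 in 21.1%. The link to residual Ctcf was not tested. Of the 13 called genes with another probe set in the comparison, 7 had the same sign on all of them and 6 did not, and in 3 another probe set was itself called in the same direction. Averaging all probe sets of a gene lost 10 of the 34 calls (Zfp597, Zfp410, Zfp553, Zfp148, Zfp318, Zfp655, Zfp106, Zfp638, Zfp612 and Zfp319). Leaving out the intensity trend of the variance lost 13, among them the bright Zfp653, Zfp655 and Zfp598.

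The 87 genes that were not called had log2 fold changes between -0.36 and 0.34, with 41 positive and 46 negative, and 39 of them lay within 0.1 of 0. Standard errors over the 121 genes ran from 0.040 to 0.20, with a median of 0.081, and the smallest called change was 0.15. Zfp961, Zfp438 and Zfp873 were not called although their groups did not overlap, at -0.14, -0.16 and -0.19. The brightest Zfp gene, Zfp296, a cofactor used in reprogramming to pluripotency, had a signal of 5113 ± 168 (SD, n = 5) in wild-type and 4936 ± 296 in depleted oocytes, with overlapping arrays. The next not called were Zfp277 (1948 ± 93.6 and 2086 ± 173), Zfp932 (1394 ± 67.8 and 1512 ± 53.6) and Zfp91 (1506 ± 42.9 and 1360 ± 93.4), and their groups overlapped too.

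Among the 121 Zfp genes, Zfp553 and Zfp771 were the only adjoining pair with both genes called. Such pairs were uncommon in general, since over the whole reference 251 of 9326 adjoining measured pairs had both genes called. In the order of protein-coding genes on the reference assembly GRCm38.p6, 24 of the 121 genes adjoined another of them, in 9 runs. Of these 24, 6 were called, as were 28 of the 97 others. The share called was 28.1% over all 121, against 16.4% of all genes and 21.5% of genes with a mean signal over the limit. The longest run held Zfp111, Zfp109, Zfp108, Zfp93, Zfp61 and Zfp94, and of these 6 Zfp61 alone was called on its brightest probe set. Zfp111 had 0.19 on that probe set, but its other 2 probe sets, at 0.28 and 0.998, were both called higher. Zfp93 and Zfp94, which flank Zfp61, had log2 fold changes of 0.070 ± 0.11 (SE) and 0.29 ± 0.10, and Zfp94 had an adjusted p of 0.0604 (limma, Benjamini-Hochberg). The differences within the run were not tested. In the run of Zfp383, Zfp74 and Zfp568 all 3 values were negative and Zfp568 was called. Zfp553 and Zfp771 adjoin each other and both rose, although the other probe set of Zfp553 gave -0.017.

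**Figure D4:**
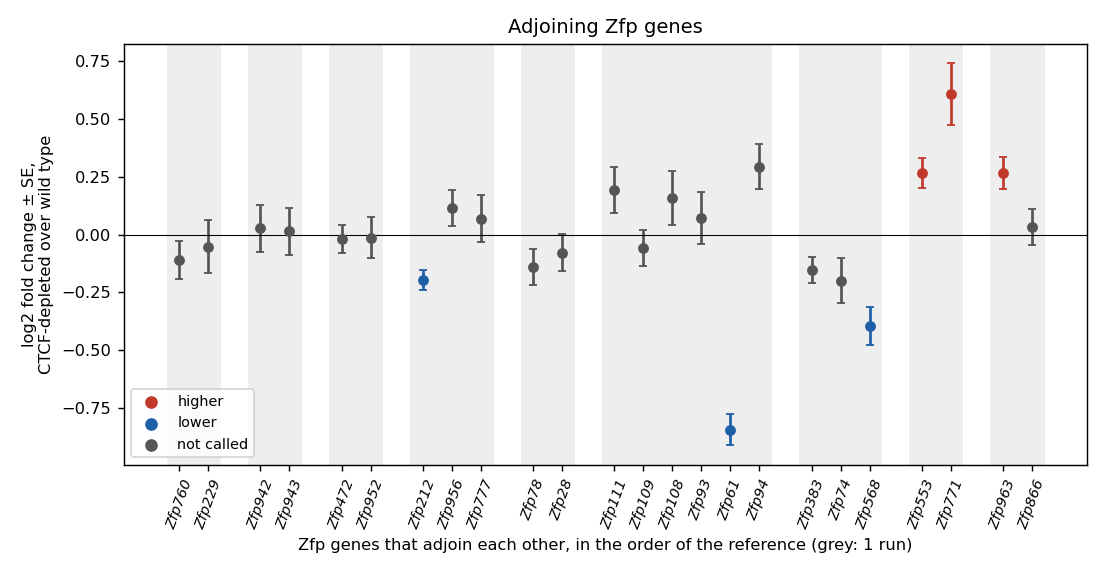
Log2 fold change with its SE for the 24 Zfp genes that adjoin each other, in reference order, with each of 9 runs on a grey band and called genes in red (higher) or blue (lower). Zfp61 stands at -0.84 between Zfp93 at 0.070 and Zfp94 at 0.29, and Zfp553 and Zfp771 are both called higher.

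Next to the called Zfp genes, 38 neighbours outside the 121 were measured and 8 of them (21.1%) were called, against 16.4% of all genes. In 7 of these 8 pairs both genes moved the same way. Over the whole reference 251 adjoining pairs had both genes called, and 60.6% of those moved the same way. The 7 were Zfp653 with Elavl3 (0.45), Zfp748 with Zfp729b (0.47), Zfp931 with Phactr3 (0.70), Zfp963 with Zfp869 (0.57), Zfp946 with Zfp758 (-0.44), Zfp612 with Chst4 (-0.78) and Zfp212 with Zfp282 (-1.51), with the neighbour's log2 fold change in parentheses. The exception was Zfp319 with Usb1 (0.34). Several of these neighbours were dim, with mean signals of 17.8 for Chst4, 37.0 for Zfp869, 42.7 for Zfp282, 58.2 for Zfp758 and 62.9 for Usb1. The calls of Zfp931, Zfp612 and Zfp946 were lost under 13, 11 and 14 of the 26 alternatives. Probe sets of duplicated zinc finger genes can bind each other's transcripts, and their part in these pairs was not tested.

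Below the signal limit, 141 dimmer Zfp genes entered the comparison, and 7 rose and 14 fell (14.9% called, against 16.4% of all genes). At least 2-fold and called were 5 of them (3.55%, against 1.97% of all genes), where brighter Zfp genes had 1. All genes are an unlike background here, because they include the genes over the limit. Of those brighter genes 21.5% were called, and 0.910% were called at 2-fold or more. Other genes below the limit were not counted apart. Of the 5 genes, Zfp282, Zfp583, Zfp677 and Zfp991 were lower and Zfp503 higher. Some of these values lay at the level of the Bacillus controls. Zfp991 was above them on 0 of 5 depleted arrays, Zfp677 on 1 of 5 depleted arrays and Zfp503 on 2 of 5 wild-type arrays. In related families under the same signal rule, 4 of 18 Zbtb genes were called, all 4 higher, and 3 of 11 Zscan and Zkscan genes were higher and 1 lower. The called shares were 22.2% and 36.4%, against 21.5% of all genes over the limit, so that of Zbtb was near the background. The differences between families were not tested.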

How the data were processed

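Total RNA was purified with a Picopure kit and labelled with biotin, per the labels' protocols, and hybridised to 1-colour arrays. The authors deposited a linear intensity for each probe set. The submitters' processing notes name MAS5, with version and settings not given in the sources used here. A trimmed mean of 150 on all 10 arrays shows that the table was already scaled. Subtracting mismatch probes makes dim signals variable.

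Groups came from the sample titles. Of the probe sets 64 controls were left out, 34945 others had 1 gene symbol, 932 several and 9160 none. Comparisons used log2(signal + 2.47), whose offset, the 25th percentile of the signals, shrinks the fold changes of dim genes. Probe sets under the 40th percentile of mean log2 signal were left out, leaving 27022. The test was limma 3.58.1 under R 4.3.3 (a linear model with a moderated variance that follows intensity), adjusted by Benjamini-Hochberg over all of them and called under 0.05. A gene was represented by its probe set of highest mean. The background level was the highest of 27 Bacillus control probe sets per array. The fit was tested on simulated data.

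The Zfp genes, lists and most alternatives were chosen with earlier results of these data known. Named in full were the 12 largest called rises and falls, the 6 brightest genes, the 3 on each side of the limit, the members of the role lists, Trim28, Setdb1 and called corepressor genes. Other genes were named after their values were seen. 1 further gene matching the symbol rule is not reported here. The planned reading of protein domains was not made, as no protein sequences were used here. Alternatives were other offsets, filters, scalings, variance models, thresholds, a mean over probe sets, a covariate, the replicate block and leaving out arrays. Leaving out probe sets that can match several transcripts, and depleted replicates 2 and 5 together, were alternatives chosen after seeing the data. Same-numbered arrays of the groups had correlations of their deviations between 0.0024 and 0.051, so the numbers were not taken to pair them.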

Additional observations from a re-analysis of the deposited data

Results flagged for a closer look

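Arrays apart from the other 4 of their group were sought in 116 groups of 5 arrays of the named genes, and 3 were found, where chance gives about 1 in 20. For Zfp90 depleted replicate 4, at a signal of 187, lay apart from the other depleted arrays at 127 to 141, the gap being 0.732 of the group's range on the log2 scale. For Zfp703 depleted replicate 2, at 90.8, lay below the others at 121 to 132, a gap of 0.767 of the range. For Zfp148 wild-type replicate 4, at 196, lay below the others at 231 to 246, a gap of 0.723 of the range.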

How the results depend on the processing

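Of the 34 called Zfp genes, 10 stayed called in the same direction under all 26 alternatives fitted again: Zfp41, Zfp623, Zfp445, Zfp748, Zfp473, Zfp979, Zfp341, Zfp568, Zfp939 and Zfp61. With single arrays left out, 14 to 21 Zfp genes rose and 9 to 14 fell, 22 of the 34 kept their call throughout, and 1 to 2 corepressor genes rose. With median centring 7 Zfp genes and 712 of all genes fell, against 15 and 1262, and 27 and 1420 rose, against 19 and 1004. The median log2 fold change of all genes moved from -0.017 to 0.069 there. Without the intensity trend 10 Zfp genes rose. At an adjusted p under 0.01, 7 Zfp genes rose and 7 fell, and 529 and 743 of all genes. At one under 0.10, 5 corepressor genes fell. With the replicate number as a block 21 Zfp genes rose and 16 fell, and 31 of the 34 kept their call; the numbers were not taken to pair the arrays. Without depleted replicates 2 and 5, 24 rose and 11 fell, and without probe sets that can match several transcripts 16 and 15. With a signal limit of 50 the calls were 21 and 21 of 146 genes, and with 200 they were 14 and 10 of 77. No named gene that was called reversed under any alternative; 151 values of named genes lost their call and 9 gained one. The Ctcf log2 fold change ran from -5.42 to -4.46. The causes of these differences were not tested.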
